A study of Homo sapiens with 4 samples.

Results

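GATA2 peaks were examined around 8 genes that encode a group of transcriptional repressors and their partner enzymes, namely GFI1, GFI1B, ZBTB16, KDM1A, RCOR1, HDAC1, HDAC2 and NCOR1. A peak was assigned to a gene when it overlapped the GENCODE gene body extended by 50 kb on each side (the window). The 8 windows span 1570 kb and held 54 of the 31777 peaks of asynchronous cells and 4 of the 1648 peaks of mitotic cells. The ChIP-seq experiment, which sequences the DNA bound by a protein, used an antibody against GATA2 in K562, an established human chronic myeloid leukaemia cell line that expresses GATA2, with 1 GATA2 library from asynchronous cells and 1 from mitotic cells. Both were fixed with disuccinimidyl glutarate and then formaldehyde, and the mitotic cells had been arrested with nocodazole and sorted for the mitotic phospho-epitope MPM-2. Mitotic cells from several sorting rounds were combined for a single ChIP, and the labels put their contamination with asynchronous cells below 10%. Neither condition had a replicate, so no difference between them was tested, and intervals below are 95% exact binomial intervals that cover counting error over peaks only.

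GFI1 and GFI1B are zinc-finger repressors of blood development. GFI1 is known for its part in stem cells and granulocytes and GFI1B for its part in erythroid cells and megakaryocytes. Through a short SNAG domain they recruit KDM1A (LSD1), a demethylase of histone H3, together with its scaffold RCOR1 (CoREST) and the histone deacetylases HDAC1 and HDAC2. ZBTB16 (PLZF) is a repressor of another class, with a BTB domain and zinc fingers, that binds the corepressor NCOR1, a platform for histone deacetylases. A factor that stays on its sites through mitosis is called a bookmarking factor, and an asynchronous peak that shared at least 1 base with a mitotic peak is called bookmarked here.

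The reference sequences (hg38, plus strand) of the intervals that kept a peak in mitosis are shown first, since the 4 of them are the mitotic GATA2 sites in these windows. Capitals mark matches to the GATA consensus. This is the core GATA with an A or a T before it and an A or a G after it, for example AGATAA, and it appears as the reverse complement where the match lies on the minus strand. The GFI1 sequence is the central part of the mitotic peak (chr1:92446656-92446955), the GFI1B sequence is the whole mitotic peak (chr9:133004293-133004525), and the ZBTB16 sequences are the central parts of the peaks in intron 2 (chr11:114147883-114148182) and intron 4 (chr11:114216350-114216649). They hold 5, 2, 2 and 3 matches in this order, and none of them overlaps an annotated exon.
GFI1 downstream: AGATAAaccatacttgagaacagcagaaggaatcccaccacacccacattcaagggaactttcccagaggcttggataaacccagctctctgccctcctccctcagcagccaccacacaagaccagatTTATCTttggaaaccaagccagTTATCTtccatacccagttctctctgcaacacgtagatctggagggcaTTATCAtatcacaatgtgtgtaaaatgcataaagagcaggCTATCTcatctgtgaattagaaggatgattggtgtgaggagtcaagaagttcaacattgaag
GFI1B downstream: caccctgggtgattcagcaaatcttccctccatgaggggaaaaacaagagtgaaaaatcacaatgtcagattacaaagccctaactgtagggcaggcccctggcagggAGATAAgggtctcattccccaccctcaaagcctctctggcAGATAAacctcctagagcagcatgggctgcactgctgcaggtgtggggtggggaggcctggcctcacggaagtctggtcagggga
ZBTB16 intron 2: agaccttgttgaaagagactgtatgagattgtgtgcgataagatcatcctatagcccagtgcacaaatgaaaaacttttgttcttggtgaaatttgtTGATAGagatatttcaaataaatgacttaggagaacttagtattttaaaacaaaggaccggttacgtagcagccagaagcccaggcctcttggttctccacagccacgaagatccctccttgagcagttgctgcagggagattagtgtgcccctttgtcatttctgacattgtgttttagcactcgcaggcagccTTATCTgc
ZBTB16 intron 4: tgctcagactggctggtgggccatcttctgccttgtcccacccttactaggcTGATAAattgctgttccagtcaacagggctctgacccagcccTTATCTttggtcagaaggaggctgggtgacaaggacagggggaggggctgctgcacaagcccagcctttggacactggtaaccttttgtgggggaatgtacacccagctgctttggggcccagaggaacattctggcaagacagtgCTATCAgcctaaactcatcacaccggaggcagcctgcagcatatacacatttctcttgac

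For comparison, the central part of the widest asynchronous peak at GFI1B (chr9:132984493-132984792), which had no mitotic counterpart, is given. It holds no GATA match within these 300 bp.
GFI1B intron 1, asynchronous only: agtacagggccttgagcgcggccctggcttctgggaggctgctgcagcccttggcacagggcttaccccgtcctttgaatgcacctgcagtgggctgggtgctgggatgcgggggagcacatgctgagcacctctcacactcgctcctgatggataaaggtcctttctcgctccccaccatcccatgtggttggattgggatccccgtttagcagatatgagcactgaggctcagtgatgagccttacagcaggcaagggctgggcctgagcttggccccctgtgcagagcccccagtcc

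All 8 genes had at least 1 asynchronous peak in their window, as did 76.0% of the 20033 protein-coding genes. Mitotic peaks were found at the genes of the 3 DNA-binding repressors, with 1 at GFI1, 1 at GFI1B and 2 at ZBTB16, and at none of the 5 corepressor genes. Among all protein-coding genes, 11.7% had a mitotic peak in such a window. Of the 54 asynchronous peaks, 4 were bookmarked, or 7.41% (2.06 to 17.9), against 5.04% of all asynchronous peaks. The share at the 8 genes therefore lay close to that of the whole list, and its interval included it. In the windows of the DNA-binding repressors, 4 of 24 peaks were bookmarked, or 16.7% (4.74 to 37.4), and the interval included 5.04%. Of these 4 peaks, 2 came from ZBTB16. Of the 24, 6 (25%) were among the widest 10% of all asynchronous peaks, and 24.6% of those widest peaks were bookmarked. The genes were chosen with earlier results of these data known, so the share is a description only. In the windows of the corepressors, 0 of 30 peaks were bookmarked, which allows a share of up to 10% when a count of 0 is read as at most 3 (exact upper bound 11.6%) and so does not set these windows apart from the background.

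GFI1 (ENSG00000162676, chr1:92473043-92486925, minus strand) is a short gene of 13.9 kb, and none of its 3 asynchronous peaks lay in the gene body. The peaks measured 774, 546 and 493 bp. The widest, chr1:92446279-92447052, was the bookmarked one, and it lay downstream of the gene. Its mitotic peak, chr1:92446564-92447048, was 485 bp wide, lay 25995 bp beyond the end of the gene and was 40119 bp from the canonical transcription start site. Although the neighbouring gene EVI5 overlaps the window, the nearest coding start site to each of the 3 peaks was that of GFI1, at 33433, 20178 and 29596 bp.

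The bookmarked GFI1 peak was dense in GATA matches, with 7 in 774 bp (9.04 per kb), and 6 of the 7 lay inside the mitotic interval. The other GFI1 peaks held 2 and 3 matches. With 3 asynchronous peaks, GFI1 stood above 57.5% of protein-coding genes, and of the 2436 genes with the same number 13.1% had a mitotic peak. A further mitotic peak lay just outside the window, at chr1:92544769-92545083, 57844 bp upstream of the gene, and GFI1 was also its nearest coding gene. It was 315 bp wide, held 2 GATA matches and lay in an asynchronous peak of 611 bp.

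GFI1B (ENSG00000165702, chr9:132944000-132991687, plus strand) had 8 asynchronous peaks and the highest density of the 8 genes, at 5.42 peaks per 100 kb of window. The median over protein-coding genes was 1.41 per 100 kb, and 94.96% of them had a lower density. From the 5′ end, the peaks measured 182, 235, 611, 922, 464, 380, 476 and 784 bp. Of these peaks, 3 lay inside the gene body, 1 just upstream of it and 4 downstream. GFI1B had the nearest coding start site to all 8, although TSC1 and GTF3C5 also reach into the window. Of the 419 protein-coding genes with 8 asynchronous peaks, 36.8% had a mitotic peak.

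The bookmarked GFI1B peak was the farthest downstream of them, chr9:133003928-133004711, and had 4318 bp between it and the next. Its mitotic peak of 233 bp covered 29.7% of it and lay 12606 bp beyond the 3′ end of the gene. It was the narrowest of the 4 mitotic peaks, with 29.4% of all mitotic peaks narrower, while the other 3 exceeded at least 88.2% of them. Both GATA matches inside it were AGATAA, and 1 further match lay in the rest of the asynchronous peak. It was also the only 1 of the 4 mitotic intervals with the string AATCAC, the core of the sequence that GFI1 and GFI1B themselves recognise. The string occurred on the minus strand at chr9:133004301-133004306 and on the plus strand at chr9:133004348-133004353. The minus-strand match overlaps a match to TGANTCA, the string of AP-1 factors, at chr9:133004302-133004308. Over the whole asynchronous peak, AATCAC was present in 29.8% of all bookmarked peaks.

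A narrow GFI1B peak of 235 bp, chr9:132978509-132978743, covered the canonical start site at position 132978694. It overlaps an annotated exon of GFI1B upstream of that start site and was not bookmarked. It held a single GATA match that ended 111 bp before the start site, shown here with its flanks (chr9:132978566-132978595).
GFI1B start site: cctggaaagtttTGATAAgcaaatacggct
The widest GFI1B peak, chr9:132984182-132985103, was in intron 1 and was asynchronous only. It was wider than 97.7% of all asynchronous peaks, more than the bookmarked peak (94.5%), and had a GC content of 62.1%. Its 3 GATA matches all lay outside the central 300 bp. Downstream of the gene, the peaks at chr9:132998556-132998935 and chr9:132999134-132999609 were only 198 bp apart, and neither was bookmarked.

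ZBTB16 (ENSG00000109906, chr11:114059041-114256765, plus strand) had 13 asynchronous peaks, the most of the 8 genes, and 12 of them lay inside its 198 kb gene body. Among all protein-coding genes, whose median was 2 asynchronous peaks per window, 1.68% had at least 2 mitotic peaks, as ZBTB16 did. Of the 74 genes with 13 asynchronous peaks, 50% had a mitotic peak, and 13 besides ZBTB16 had 2 mitotic peaks. The peaks were spread along the gene, with 1 in intron 1, 6 in intron 2, 2 in intron 3 and 3 in intron 4, and 1 lay downstream near the start site of NNMT. Their widths ran from 184 to 2009 bp with a median of 421 bp.

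The intron 4 peak of ZBTB16, chr11:114215430-114217438, was the widest of all 54 at 2009 bp, and 99.97% of all asynchronous peaks were narrower. It held 11 GATA matches, the most of the 54, and its mitotic peak, chr11:114216253-114216746, covered only 24.6% of it and contained 3 of the 11. In contrast, the intron 2 peak, chr11:114147618-114148339, was 722 bp wide and its mitotic peak, chr11:114147745-114148320, covered 79.8% of it and contained all 3 of its matches. Between the start of the gene and this peak lay another wide peak in intron 2, of 1281 bp. It was wider than 99.7% of all asynchronous peaks, was not bookmarked and held 1 GATA match. A peak of 276 bp had its edge 4 bp from the nearest annotated ZBTB16 start site and was not bookmarked either.

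All 4 mitotic peaks lay wholly inside the asynchronous peak they matched. Taken over the 4, the mitotic intervals held 14 GATA matches in 1788 bp, or 7.83 per kb, and the rest of the asynchronous peaks held 10 in 2501 bp, or 4.00 per kb. The same contrast was seen over all bookmarked peaks, at 7.71 per kb inside and 2.81 per kb in the rest. Asynchronous-only peaks were not split in this way. Whether the contrast goes with mitotic binding or with the place in the peak was therefore not tested. The rest held 1 match at GFI1, 1 at GFI1B, 0 in ZBTB16 intron 2 and 8 in ZBTB16 intron 4. The density inside exceeded that in the rest at each of the 4 sites. It was 12.4 against 3.46 per kb at GFI1, 8.58 against 1.81 at GFI1B, 5.21 against 0 in ZBTB16 intron 2, and 6.07 against 5.28 in ZBTB16 intron 4, where the densities were closest.

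KDM1A (ENSG00000004487, chr1:23019443-23083689, plus strand) had 6 asynchronous peaks, of 301, 273, 184, 181, 184 and 448 bp, and the last was wider than 63.9% of all asynchronous peaks. Their median of 228.5 bp was below the lower quartile of the whole list (267 bp). An intron 2 peak and a peak of 184 bp over exon 4 lay in the gene, and only 3 of the 6 peaks had KDM1A as the nearest coding gene. The others were nearer to TEX46 (1 peak) and LUZP1 (2 peaks). Of the 889 protein-coding genes with 6 asynchronous peaks, 26.1% had a mitotic peak.

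RCOR1 (ENSG00000089902, chr14:102592649-102730561, plus strand) had 10 asynchronous peaks, more than 96.4% of protein-coding genes, and 6 lay in the gene body. This was the highest number at any of the corepressor genes, and 41.3% of the 208 genes with as many asynchronous peaks had a mitotic peak. The widest RCOR1 peak, chr14:102665643-102666282 in intron 2, measured 640 bp and held 5 GATA matches. It fell just short of the widest 10% of asynchronous peaks, which starts at 681 bp. At the other end, 2 narrow upstream peaks of 195 and 194 bp held no GATA match, the only such peaks besides 1 at GFI1B.

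HDAC1 (ENSG00000116478, chr1:32292083-32333635, plus strand) had 3 asynchronous peaks, of 339 bp in intron 1, 320 bp in intron 2 and 387 bp downstream. The downstream peak lay 741 bp from the start site of FAM229A. It held 9 GATA matches, or 23.3 per kb, the highest density of the 54 peaks. All 9 follow each other on the plus strand within chr1:32360848-32360917 as a short tandem repeat. None of the 3 peaks was bookmarked, and 13.1% of the 2436 genes with as many asynchronous peaks had a mitotic peak. HDAC1 has the most crowded window of the 8, with 7 other coding genes, among them LCK and MARCKSL1.

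HDAC2 (ENSG00000196591, chr6:113933028-114011308, minus strand) had 4 asynchronous peaks of 817, 201, 183 and 205 bp. The peak of 817 bp, chr6:113920860-113921676, lay downstream of the gene and held 4 GATA matches, and the other 3 were near the narrow end of the list, with at most 9.61% of all peaks narrower. HDAC2 had the nearest coding start site to all 4, and 17.9% of the 1880 genes with 4 asynchronous peaks had a mitotic peak. NCOR1 (ENSG00000141027, chr17:16029065-16218185, minus strand) had 7 asynchronous peaks over a gene of 189 kb, at 2.42 per 100 kb. Among them, a peak of 310 bp over exon 2, chr17:16194400-16194709, covered the start site of a shorter NCOR1 transcript, and a peak of 437 bp lay in intron 1. The widest NCOR1 peak, chr17:15981650-15982506 (857 bp), was 1283 bp from the start site of ZSWIM7. Of the 584 genes with 7 asynchronous peaks, 31.0% had a mitotic peak. A mitotic peak of 181 bp, chr17:15959059-15959239, lay outside the NCOR1 window, 69826 bp beyond the gene, and its nearest coding gene was ADORA2B.

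Peak width was the only measure of a peak besides its position, and the bookmarked peaks were wide. The median width at the 8 genes was 383.5 bp (320 to 446), close to that of all asynchronous peaks (378 bp). At the DNA-binding repressors it was 469.5 bp (358 to 611) and at the corepressors 315 bp (205 to 400), so the 2 intervals overlapped. The widest 10% of asynchronous peaks contained 8 of the 54, of which 6 were at the DNA-binding repressors and 2 at the corepressors. Of these 8, 4 were bookmarked, or 50% (15.7 to 84.3), against 24.6% in the widest 10% of the whole list. None of the remaining 46 peaks was bookmarked, against 2.85% of all peaks outside the widest 10%. The part of peak width in the number of mitotic peaks per window was not tested.

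**Figure D1:**
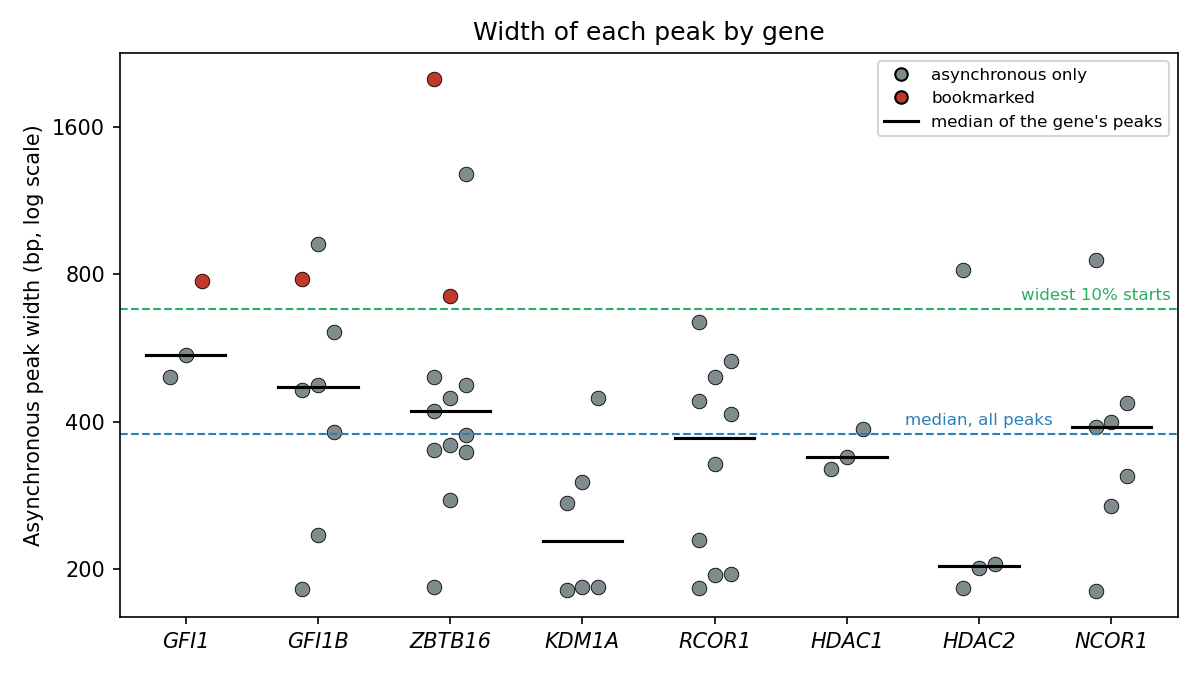
Width of each of the 54 asynchronous peaks (bp, log scale) by gene, with a black bar at each gene's median and dashed lines at the median of all asynchronous peaks (378 bp) and at the start of their widest 10% (681 bp). All 4 bookmarked peaks, in red, lie above the upper line, together with 4 peaks that were asynchronous only.

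The 4 wide peaks without a mitotic counterpart were at GFI1B (922 bp), ZBTB16 (1281 bp), HDAC2 (817 bp) and NCOR1 (857 bp). In their central 300 bp they held 0, 0, 1 and 1 GATA matches. The central 300 bp of the wide bookmarked peaks held 4 matches at GFI1, 3 at GFI1B and 2 in each of the ZBTB16 peaks. These central counts did not overlap, but this depended on the 300 bp cut. At HDAC2 a further match was centred 151.5 bp from the middle of the peak, just outside the cut. With that match the HDAC2 peak would hold as many as each bookmarked ZBTB16 peak. Other widths of the central part were not tried. Over the whole peak the counts did overlap. The bookmarked peaks held 7, 3, 3 and 11 matches and the others 3, 1, 4 and 2. Over the widest 10% of the whole list the difference in the central 300 bp was small beside the spread. The mean was 2.20 ± 1.45 matches (SD, n = 786 peaks) in bookmarked and 1.97 ± 2.59 (SD, n = 2407 peaks) in asynchronous-only peaks, and 68.8% and 53.6% of them had at least 2 matches. Per kb of the whole peak, the bookmarked peaks of the widest 10% held 5.08 matches and the asynchronous-only ones 5.63. The separation seen in the centre of 8 peaks is therefore a description of these genes only.

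**Figure D2:**
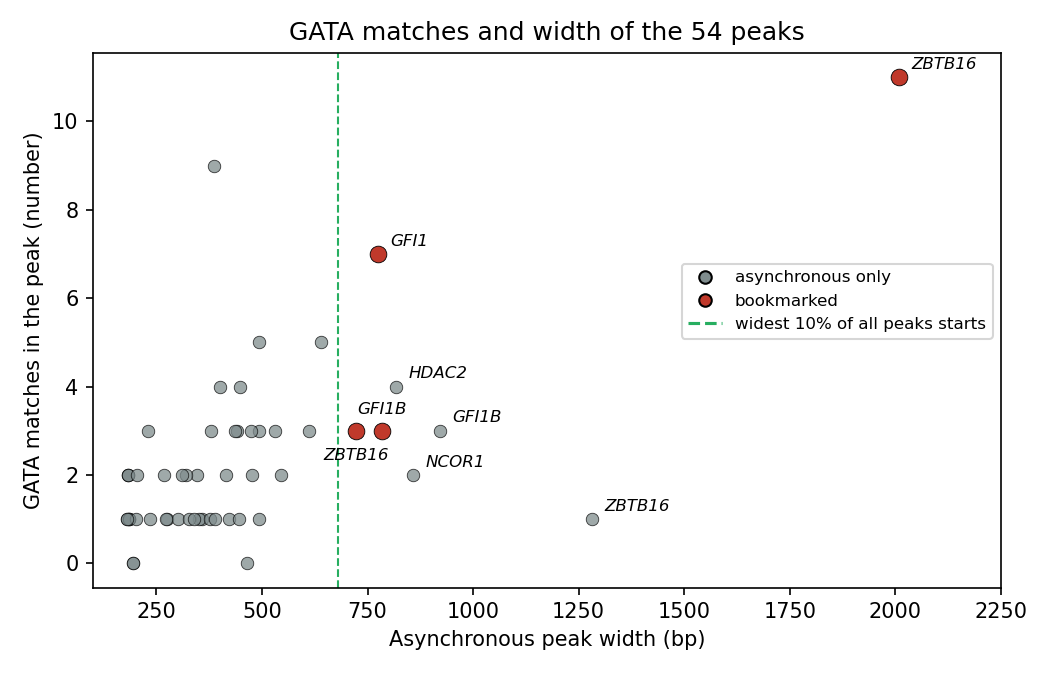
Number of GATA matches in each of the 54 asynchronous peaks against its width (bp), with bookmarked peaks in red and a dashed line where the widest 10% of all asynchronous peaks starts (681 bp). The intron 4 peak of ZBTB16 (2009 bp, 11 matches) is the widest and holds the most matches. The peak with 9 matches is the one downstream of HDAC1, where they form a short tandem repeat.

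A GATA match was present in 51 of the 54 peaks, or 94.4% (84.6 to 98.8), against 93.0% of all asynchronous peaks. The mean was 2.33 ± 2.05 matches (SD, n = 54 peaks), against 2.51 ± 2.99 over all peaks. The share with at least 2 matches was 57.4% (43.2 to 70.8), against 66.4%. Strings of other factors that act with GATA2 in blood cells were searched on both strands without overlap. AACCACA (RUNX) was found in 12.96% (5.37 to 24.9) of the 54 peaks and 13.6% of all, TGANTCA (AP-1) in 18.5% (9.25 to 31.4) and 18.6%, and CAGCTG (E-box) in 27.8% (16.5 to 41.6) and 24.1%. CTG followed after 8 bases by GATAA, the composite element of GATA factors with E-box proteins, was found in 9.26% (3.08 to 20.3) and 8.55%. AGGAAGT (ETS) was found in 24.1% (13.5 to 37.6) of the 54 and 14.9% of all, and the interval only just included the background.

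The string AATCAC of GFI1 and GFI1B was present in 13 of the 54 peaks, or 24.1% (13.5 to 37.6), against 20.02% of all asynchronous peaks. It was found in 5 of 24 peaks at the DNA-binding repressors and 8 of 30 at the corepressors. The longer form AATCACNGC was in none of the 54 peaks and in 1.03% of all. These matches are letters in the reference genome, and binding of GFI1 or GFI1B was not measured here.

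Most of the 54 peaks lay away from promoters. The midpoint was in the member gene for 30 peaks, upstream for 9 and downstream for 15, and 27 were in an intron of the canonical transcript. Within 3 kb of any start site of the gene lay 13 peaks, and none of the 4 bookmarked peaks was among them. The nearest coding start site belonged to the gene itself for 46 of the 54, including all 4 bookmarked peaks. RefSeq promoters (GRCh38.p14, from 250 bases before to 50 after a start) were matched for 7 of the 8 genes, all but ZBTB16, and gave 11 entries. Of these, 3 held a GATA match, 1 of GFI1 and 2 of GFI1B, and the share over all 35116 promoters was 24.97%. An asynchronous peak overlapped 2 of the 11, those at the canonical start of GFI1B and at the internal start of NCOR1. The placements were not set beside all asynchronous peaks, nor the overlap beside all promoters. They describe the 54 peaks only and do not set these genes apart.

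The genes of the other subunits of these corepressor complexes and of related ones, and of 3 related BTB zinc-finger factors, were mostly occupied in asynchronous cells. Of these 34 genes, 31 had an asynchronous peak (91.2%, against 76.0% of protein-coding genes) and 5 had a mitotic peak (14.7%, against 11.7%). The 11 further CoREST genes all had an asynchronous peak, and 3 had a mitotic peak. GSE1, a CoREST-associated protein, had 18 asynchronous and 3 mitotic peaks, more of either than any of the 8 genes. Its density of 2.97 asynchronous peaks per 100 kb of window was below that of GFI1B, ZBTB16, KDM1A and RCOR1 and above the rest. RCOR3, a paralogue of RCOR1, and CTBP2, a corepressor, had 1 mitotic peak each. The nearest coding start site to the RCOR3 mitotic peak was that of another gene, at 33894 bp. Of 5 NCoR and SMRT genes, 4 had an asynchronous peak and 0 a mitotic peak. GPS2, a subunit of this complex, had none in either condition. Of 4 SIN3 genes, 2 had an asynchronous peak, and SIN3A, the scaffold of that complex, and SAP18 had none. SAP30, another SIN3 subunit, had 1 mitotic peak, which covered the start site of the neighbouring HMGB2. All 11 NuRD genes had an asynchronous peak and 1, MTA2, had a mitotic peak, over the start site of TUT1. The related BTB zinc-finger genes BCL6, ZBTB7A and ZBTB17 had 1 asynchronous peak each and no mitotic peak.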

How the data were processed

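GATA2 ChIP-seq peaks of asynchronous and mitotic K562 cells were used, with 1 library per condition. Inputs were not used here. The sequences of some peaks are not reported here. Per the paper's methods, the authors aligned reads to hg38, retained those that mapped uniquely, extended them at the 3′ end and filtered called peaks against the ENCODE blacklist. The submitters' processing notes name BWA 0.7.12, MACS2 2.1.0, Genrich 0.6.1 and deepTools 2.5.4. How the MACS and Genrich calls were merged, and with which thresholds and use of inputs, is not given in the sources used here. The values deposited by the authors are the chromosome, start and end of each peak in bp, with no height, p-value or read count, so depth is unknown and a site without a peak may be below detection.

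Peaks were intersected with GENCODE release 44 gene bodies extended by 50 kb, and printed with the first base as 1. Motif strings were searched in hg38 on both strands without overlap. A start site means that of any annotated transcript unless called canonical, and nearest coding distances run from the peak's edge. Shares have exact (Clopper-Pearson) and medians order-statistic intervals at 95%. No test was made. The genes named are the 8 members, the genes nearest to their mitotic peaks, coding genes overlapping the windows, and, from a list of 34 genes of the CoREST, NCoR and SMRT, SIN3, NuRD and BTB families, those with a mitotic peak or without an asynchronous one. BCL6, ZBTB7A, ZBTB17 and ADORA2B were named besides. Members and lists were chosen with earlier results of these data known. Overlap and motif steps were tested on simulated data. Alternatives changed the window, the overlap, the width, the searched interval, the strings, the promoter distance and the genes included. Python 3.11.15, numpy 2.4.6, scipy 1.17.1, pysam 0.24.0, samtools 1.23.1 and matplotlib 3.10.9 were used.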

Additional observations from a re-analysis of the deposited data

How the results depend on the processing

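Of 74 recomputed values, 63 stayed near the value given above (within 1.5 times for counts, within the 95% interval for shares and widths), and 11 moved further. With the gene body alone, 30 asynchronous and 2 mitotic peaks remained, 1 gene (ZBTB16) had a mitotic peak, and 100% of the asynchronous peaks had a GATA match. With 10 kb on each side, 2 mitotic peaks at 1 gene (ZBTB16) remained. The mitotic peaks at GFI1 and GFI1B thus depended on the width of the window, while the assignment by nearest start site gave 2 at GFI1, 1 at GFI1B, 2 at ZBTB16 and 0 at the corepressors, and 100 kb on each side added 1 at GFI1 and 1 at NCOR1. Without ZBTB16, 2 mitotic peaks were left. Among peaks at or above the median width, 28 lay in the windows and 14.3% of them were bookmarked, against 9.65% of all such peaks. AGATAA alone was found in 70.4% of the 54 peaks and AATCACNGC in 0%, and 6 peaks lay within 1 kb of a start site of their gene. Requiring a reciprocal overlap of at least 50% left GFI1 and the intron 2 peak of ZBTB16, or 3.70% of the 54 peaks against 2.02% of all. No paired analysis was possible because the result comes from no test and each condition has 1 library. With 4 mitotic peaks in the windows, depth, which the lists do not give, limits any statement about sites without one.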
